A study of Rattus norvegicus with 6 samples.

Results

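The genes of the integrins, laminins, nidogens and thrombospondins were examined in cortical neural progenitors of the rat. Integrins are the receptors by which a cell holds on to the extracellular matrix, and the other families are matrix proteins that integrins and other receptors bind. The rule goes by gene name and takes genes called Itga, Itgb, Lama, Lamb, Lamc, Thbs or Nid with a number, together with *Itgav*, *Itgal* and *Itgam* and without the integrin-binding proteins whose names end in bp. This rule found 31 of 17337 gene names, each at 1 locus with the same position in every library. Among them were 10 integrin alpha, 8 integrin beta, 3 laminin alpha, 2 laminin beta, 3 laminin gamma, 1 nidogen and 4 thrombospondin genes. *Itga3*, *Itgav*, *Lama2*, *Lamb1* and *Nid1* were not analysed here, so each share of a class given below is a share of its analysed genes.

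The cells came from cortices of Sprague Dawley rat embryos at embryonic day 14 and were untreated. They were grown on dishes coated with CELLstart, an attachment substrate, in medium with a neural supplement and the growth factors bFGF and EGF, and were collected after passaging. PolyA-selected mRNA of 2 biological replicates, A and B, was sequenced as 2 technical libraries each (A1, A2, B1 and B2). There was 1 condition, so the data give levels and the spread between cultures, and with 1 culture on each side no test between A and B was made. Levels are FPKM, fragments scaled to transcript length and library depth, and values given as mean ± SD are over the 2 replicates after averaging their technical libraries (n = 2).

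An integrin is a pair of 1 alpha and 1 beta chain, and the alpha chain largely sets which matrix protein is bound. Laminins are trimers of 1 alpha, 1 beta and 1 gamma chain that build the sheet of a basement membrane, and nidogens link laminin to the collagen IV network. In the embryonic cortex the end feet of radial glia, the progenitors of the ventricular zone, rest on the basement membrane under the meninges, which meningeal fibroblasts help to make. Thrombospondins are secreted proteins that bind receptors and matrix. *Thbs1* and *Thbs2* form trimers, and *Thbs3* and *Thbs4* form pentamers.

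All 10 markers of neural progenitors were above 1 FPKM in every library, the lowest of them being *Emx2*, a cortical transcription factor, at 14.0 and 14.3 FPKM in A and 13.9 and 10.5 in B. *Sox2*, a transcription factor of neural stem cells, was at 558, 592, 406 and 356 FPKM in A1, A2, B1 and B2. Markers of meningeal and mesenchymal cells were also present, and the summed level of the 14 genes of that list was 827 and 809 FPKM in the libraries of A but 3059 and 3837 in those of B. All 14 had both B libraries above both A libraries. *Col1a1*, a fibrillar collagen of fibroblasts, was at 169 and 157 FPKM in A and at 685 and 785 in B. In bulk RNA a larger share of cells of a type and more RNA per cell cannot be told apart. Endothelial markers were low, the highest value of the 10 genes in any library being 2.09 FPKM, but their summed level was 1.30 and 1.16 FPKM in A and 2.73 and 5.67 in B. The 9 myeloid markers summed to 7.76 and 6.92 FPKM in A and 8.53 and 7.25 in B. Of these *Cd68*, a lysosomal protein, reached 5.68 FPKM, and *Ptprc*, the pan-leukocyte gene, 0.0209. *Cd68* was a large part of these sums and was lower in B, at 5.68 and 3.81 FPKM in A and 3.29 and 2.51 in B. *Csf1r*, *Aif1*, *Tyrobp*, *C1qa* and *C1qb*, all with means below 1 FPKM, had both B libraries above both A libraries. *Ptprc*, *Cx3cr1* and *Fcer1g* overlapped. None of the 8 neuronal markers met the criteria given below for a difference between A and B, but 5 of the 7 at a mean of 1 FPKM or more had both A libraries above both B libraries, beside 32.0% of all genes at that mean, and their median log2 difference was -0.53. Of the 4 choroid plexus genes 1 met the criteria in each direction. *Ttr*, encoding transthyretin, was at 80.7 and 82.6 FPKM in A and at 26.4 and 3.03 in B, and *Aqp1*, encoding a water channel, was at 1.78 and 1.79 in A and at 7.04 and 11.4 in B. Of the 7 genes of the oligodendrocyte lineage 1 met them, *Pdgfra*, which is also on the mesenchymal list. The summed level of these 7 was 264 and 290 FPKM in A and 702 and 360 in B, and *Olig1*, a transcription factor of the lineage, was at 172 and 195 in A and at 523 and 237 in B. Of the 5 astrocyte markers *S100b* met them for higher in A, with a log2 difference of -1.14, which was -0.92 without B2. *Gja1* and *Aqp4* had both B libraries above both A libraries, a pattern of 28.1% of all genes at a mean of 1 FPKM or more. Library B2 was shallower than the rest, since 1 FPKM stood for a coverage of 6.83 reads per base in B2 and of 22.7 to 24.4 in the others. B2 also stood apart from B1 in some genes of several lists, among them matrix and meningeal genes. *Foxc1*, a transcription factor of the meninges, was at 29.4 FPKM in B1 and 115 in B2. *Aldh1a2*, which makes retinoic acid there, was at 71.2 and 369. On the astrocyte list *Gfap* was at 419 FPKM in B1 and 904 in B2, and *Gja1* at 150 and 328. *Olig1* and *Olig2* went the other way, with *Olig2* at 103 in B1 and 49.7 in B2.

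Of the 31 members, 19 had a mean of at least 1 FPKM, a share of 61.3% beside 60.5% over all gene names. The 3 highest were *Nid2*, *Itgb1* and *Lamb2*, which ranked 443, 875 and 1238 among all gene names. By replicate mean, *Nid2* was above *Itgb1* and *Lamb2* in B but below both in A, although in A2 alone it was above *Lamb2*. Of the 18 pairs of neighbours in the order of the means, 15 had replicate values that overlapped, and 7 kept the same order in A and in B. The 3 steps beyond the spread of the replicates were those from *Itgb1* to *Lamb2*, from *Lamb2* to *Itga7* and from *Itgb8* to *Itgb4*, and in the last of these the single libraries still overlapped. The plot of levels by library shows this order.

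**Figure D1:**
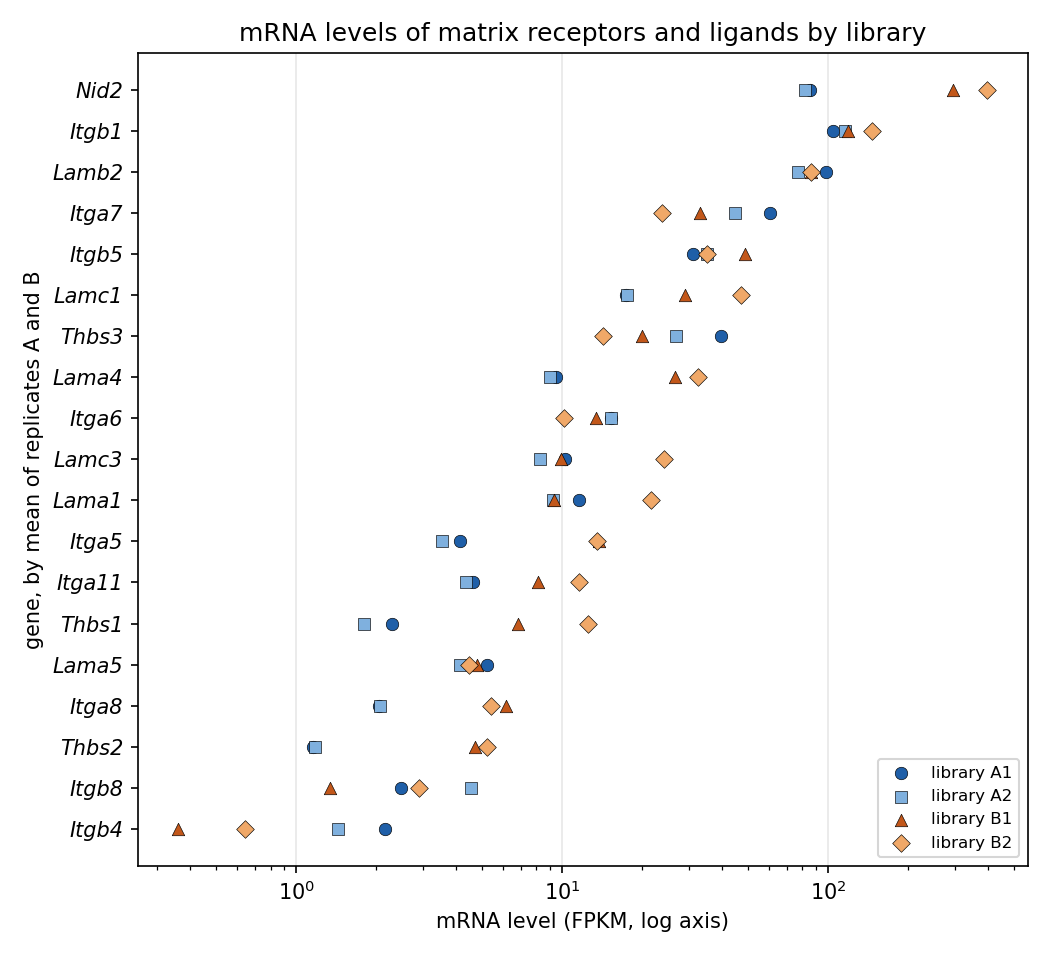
mRNA level (FPKM, log axis) of the 19 genes averaging 1 FPKM or more, with 1 point for each of the libraries A1, A2, B1 and B2 and genes sorted by their mean. *Nid2* spans 81.6 to 397 FPKM with B far above A, while the points of *Lamb2* lie between 77.1 and 98.2.

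Among the receptors, *Itgb1* led. It encodes beta-1, the beta chain shared by most matrix-binding integrins, and its gene spans chr19:61677542-61725537 of rn6 (plus strand). The libraries of A gave 105 and 116 FPKM and those of B 119 and 146, a mean of 122 ± 15.8. Both B libraries were above both A libraries, by 0.26 on the log2(FPKM + 1) scale, and B1 was close to A2. *Itgb1* made up 74.5 and 73.9% of the integrin beta FPKM in A1 and A2, and 70.2 and 79.1% in B1 and B2, so the libraries of B lay on either side of those of A. *Itgb5*, whose product pairs with alpha-V to bind vitronectin, was the other abundant beta gene, at 31.0 and 35.0 FPKM in A and 48.7 and 35.0 in B. Its A2 and B2 values were nearly the same, so the replicates were separated by B1 more than by B2.

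The other beta genes were low. *Itgb8*, whose product activates latent TGF-beta with alpha-V, was at 2.48 and 4.54 FPKM in A and 1.34 and 2.90 in B, and these values overlapped. *Itgb4*, the partner of alpha-6 in hemidesmosomes, was at 2.15 and 1.43 FPKM in A and 0.359 and 0.640 in B, which did not overlap. *Itgb3*, *Itgb7*, *Itgb2* and *Itgb6* had means between 0.00722 and 0.0742 FPKM. *Itgb2*, the leukocyte beta chain, was listed at 0 in B2, and *Itgb6*, an epithelial one, in B1 and B2.

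By their means the alpha genes were led by the receptors for laminin, *Itga7* and *Itga6*. In B *Itga5* was above *Itga6*, at 13.7 and 13.6 FPKM. *Itga7*, which encodes the alpha-7 chain, was at 60.3 and 44.7 FPKM in A and at 32.9 and 23.7 in B, a mean of 40.4 ± 17.1. *Itga6*, encoding alpha-6, was at 15.3 in both libraries of A and at 13.4 and 10.2 in B. For each gene the B libraries were the lower ones, with no overlap. The log2 differences of -0.87 for *Itga7* and -0.36 for *Itga6* were below 1 in size, and A1 and A2 alone differed by 0.42 for *Itga7*. *Itga7* overlaps *Mettl7b* on the other strand by 16 bp, and *Mettl7b* had a mean of 0.00495 FPKM.

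The receptors for fibronectin and other ligands with the RGD motif stood higher in B. *Itga5*, the alpha chain of the main fibronectin receptor, was at 4.12 and 3.55 FPKM in A and at 13.7 and 13.6 in B, a ratio of 3.56. *Itga8*, which binds nephronectin among other RGD ligands, was at 2.04 and 2.07 in A and 6.14 and 5.41 in B, a ratio of 2.81. For both genes the pairs of technical libraries lay close together, far nearer to each other than the 2 replicates. *Itga11*, a receptor for fibrillar collagen, was at 4.62 and 4.33 in A and 8.11 and 11.6 in B. *Itga1*, another collagen receptor, was below 1 FPKM throughout, at 0.208 and 0.258 in A and 0.659 and 0.747 in B. The gene *Pelo*, at 36.6 FPKM, lies wholly inside *Itga1* on the same strand, so reads of the 2 genes may not be fully apart.

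The makeup of the alpha genes therefore differed between the cultures. *Itga6* and *Itga7* together made up 87.0 and 85.1% of the alpha FPKM in A1 and A2, and 61.4 and 51.4% in B1 and B2. The RGD receptors *Itga5* and *Itga8* made up 7.10 and 7.98% in A and 26.3 and 28.8% in B. The collagen receptors *Itga1*, *Itga10* and *Itga11* made up 5.70 and 6.58% in A and 11.8 and 18.9% in B. The summed alpha FPKM itself was 78.6 in A and 70.7 in B. The 8 analysed alpha chains that pair with beta-1 summed to less FPKM than *Itgb1* in every library, with *Itgb1* at 1.21, 1.66, 1.59 and 2.23 times their sum in A1, A2, B1 and B2. *Itga10* and *Itga4* had means of 0.0897 and 0.0693 FPKM, and the leukocyte genes *Itgal* and *Itgam* means of 0.255 and 0.0101.

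**Figure D2:**
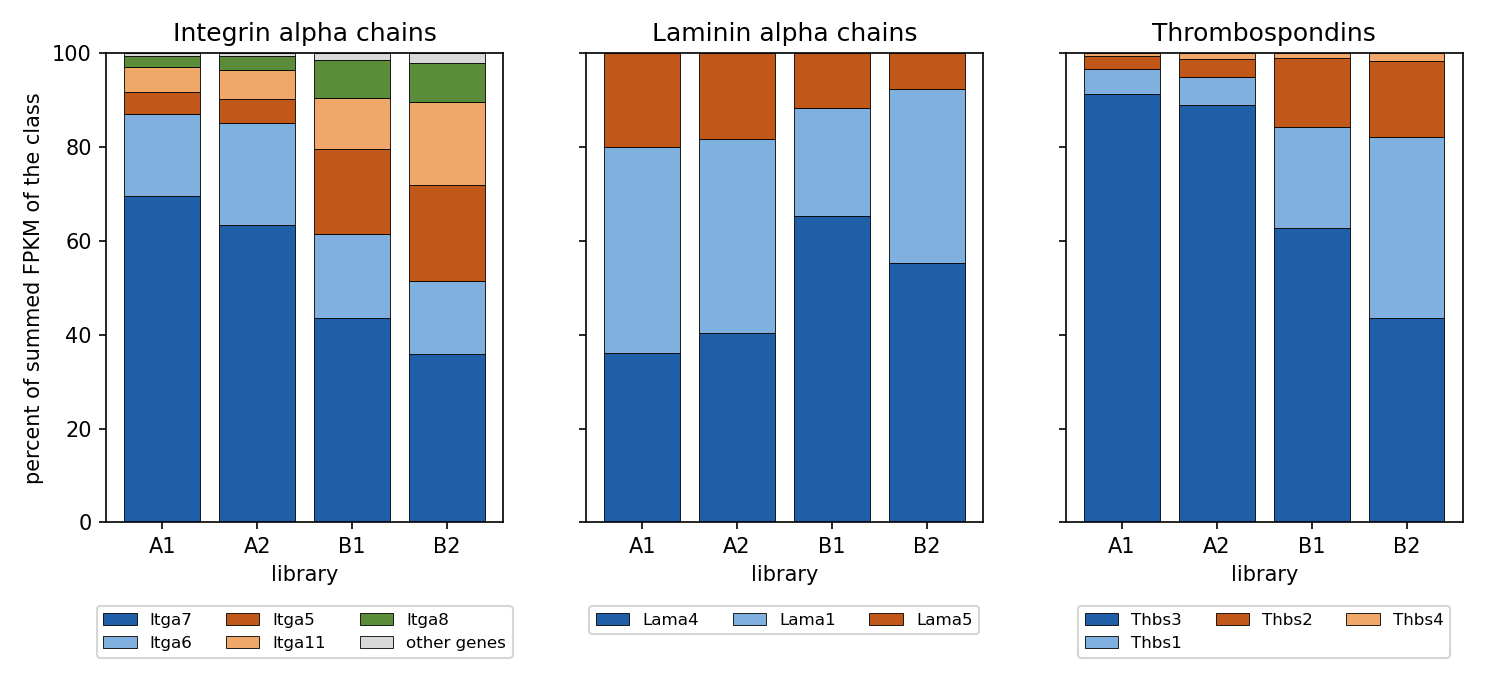
Percent of the summed FPKM of a class taken by each of its genes, in the 4 libraries, for the integrin alpha chains, the laminin alpha chains and the thrombospondins. *Itga7* (63.4 to 69.5% in A, 35.9 to 43.6% in B) and *Thbs3* (88.9 to 91.4% in A, 43.6 to 62.8% in B) take the largest shares and take less in B, while *Lama4* takes more in B.

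Among the laminins *Lamb2*, encoding the beta-2 chain, was by far the highest and differed little between the cultures. Its libraries gave 98.2 and 77.1 FPKM in A and 86.6 and 86.2 in B, a mean of 87.0 ± 0.932, so the replicates differed less than A1 from A2. *Lamb3*, an epithelial beta chain, had a mean of 0.0294 FPKM. *Lamc1*, encoding the gamma-1 chain found in most laminins, was at 17.3 and 17.5 FPKM in A and at 28.9 and 47.0 in B, a ratio of 2.18.

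The alpha chain genes differed from each other in pattern. *Lama4*, encoding the alpha-4 chain of vascular and mesenchymal basement membranes, was at 9.50 and 9.04 FPKM in A and 26.6 and 32.4 in B, a ratio of 3.18. It made up 38.1% of the laminin alpha FPKM in A and 59.4% in B. *Lama1*, encoding the alpha-1 chain of early embryonic and pial basement membrane, was at 11.5 and 9.22 in A, 9.32 in B1 and 21.7 in B2. *Lama5*, encoding alpha-5, was even at 5.24 and 4.11 in A and 4.80 and 4.46 in B. *Lamc3*, whose gamma-3 chain is known for its part in the development of the cortex, was at 10.3 and 8.26 in A, 9.86 in B1 and 24.1 in B2. For *Lama1* and *Lamc3*, B1 thus lay among the A libraries and B2 alone was higher.

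*Nid2*, encoding nidogen-2, had the highest mean of all the members and the largest difference between the cultures on the log2(FPKM + 1) scale. The gene spans chr15:4893999-4951893 of rn6 (minus strand). Its level was 85.4 and 81.6 FPKM in A and 296 and 397 in B, a mean of 215 ± 186, and B was 4.15 times A. The libraries of A nearly coincided, and those of B were both more than 3 times higher. RefSeq names 14 further genes after *Nid2* in the GRCr8 assembly of the rat, 11 of them pseudogenes, and 1 pseudogene after *Lamb2*. How reads shared with such copies were assigned is not given in the sources used here, so the levels of *Nid2* and, to a lesser degree, *Lamb2* are uncertain.

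Of the thrombospondins, *Thbs3* was lower and *Thbs1* and *Thbs2* were higher in both B libraries, with a log2 difference of -0.91 for *Thbs3*. *Thbs3* was highest, at 39.7 and 26.7 FPKM in A and 20.0 and 14.2 in B, a mean of 25.1 ± 11.4. *Thbs1*, which activates TGF-beta and is secreted by astrocytes and many stromal cells, was at 2.28 and 1.79 in A and 6.80 and 12.6 in B, a ratio of 4.75. *Thbs2*, its closest relative, was at 1.15 and 1.17 in A and 4.70 and 5.23 in B, a ratio of 4.27. The libraries of A and B did not overlap for any of these genes. The trimeric forms *Thbs1* and *Thbs2* made up 8.71% of the thrombospondin FPKM in A and 45.5% in B, while the sum over the family was 36.7 and 32.2 FPKM. *Thbs4* was below 1 FPKM in every library, between 0.309 and 0.589. The start of *Thbs3* lies 852 bp from that of *Mtx1* on the opposite strand, and *Mtx1* was at 65.3 FPKM in A and 56.3 in B.

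A gene was counted as differing between the replicates when its mean was at least 1 FPKM, the replicate means of log2(FPKM + 1) were at least 1 apart, and the libraries of A and B did not overlap. By these 3 criteria 7 of the 31 members were higher in B, a share of 22.6% beside a background of 2.77% over all 17337 gene names. They were *Nid2* (log2 difference 2.02), *Thbs1* (1.76), *Itga5* (1.60), *Lama4* (1.56), *Thbs2* (1.46), *Itga8* (1.15) and *Lamc1* (1.04). All 7 were above 1 FPKM in both replicates. No member met the criteria for higher in A, which 0.952% of all gene names met. No p value stands behind these counts, as A and B are 1 culture each. Of the members that met the criteria *Lamc1* was the nearest to the limit, and *Itga11* with 0.97 lay just outside it. Without B2, 6 of the 7 still met the criteria and the difference of *Lamc1* was 0.70.

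Counted by overlap alone, among the 19 members at 1 FPKM or more, 10 had both B libraries above both A libraries, 4 had both A libraries above both B libraries and 5 overlapped. Over all 10481 genes with such a mean these patterns held for 28.1% and 32.0%. The 4 members higher in A by this count were *Itga6*, *Itga7*, *Itgb4* and *Thbs3*, with log2 differences of -0.36, -0.87, -0.89 and -0.91. The median log2 difference over the 19 members was 0.43, beside -0.03 over all genes with such a mean, and without B2 it was 0.11. The plot of differences between replicates gives each gene.

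**Figure D3:**
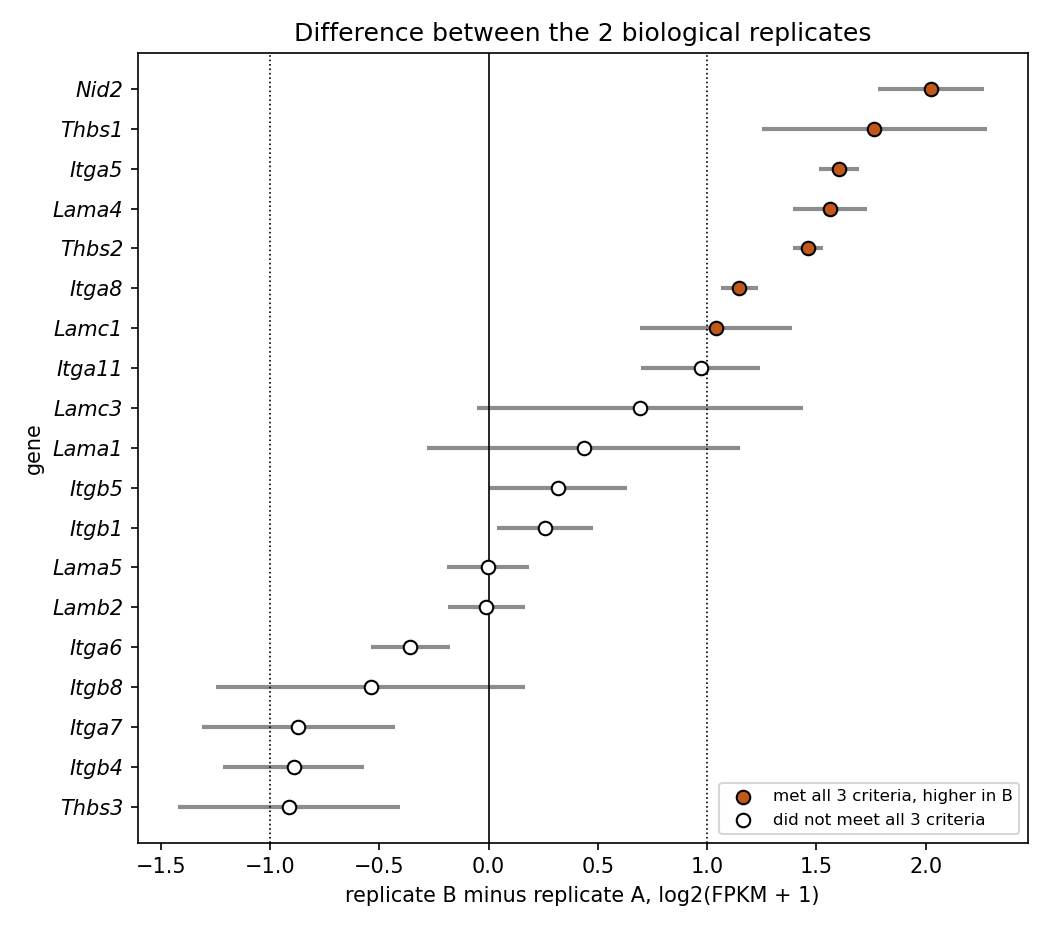
Replicate B minus replicate A in log2(FPKM + 1) for the 19 genes averaging 1 FPKM or more, where points are the difference of the replicate means, grey bars the range over the 4 pairs of 1 A and 1 B library, and dotted lines mark 1 and -1. The 7 filled points, from *Nid2* at 2.02 to *Lamc1* at 1.04, met all 3 criteria, and the bars of *Lama1* and *Lamc3* cross 0.

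The meningeal and mesenchymal markers were higher in B together with these members. Of the 14 markers 13 met the criteria for higher in B, with a median log2 difference of 1.94, and their summed level was 4.22 times higher in B. *Dcn*, the fibroblast proteoglycan decorin, was at 41.8 and 42.8 FPKM in A and 207 and 217 in B. *Ogn*, another proteoglycan of fibroblasts, had a replicate mean of 12.6 FPKM in A and 118 in B. The progenitor list had a median of -0.36, and 2 of its 10 genes, *Fabp7* and *Hes5*, met the criteria for higher in A. *Fabp7*, a fatty acid binding protein of radial glia, was at 16800 and 18557 FPKM in A and 6520 and 5485 in B. The part of these markers in the differences of *Nid2*, *Lama4*, *Lamc1*, *Itga5*, *Itga8*, *Thbs1* and *Thbs2* was not tested.

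Within replicate B, 2 of the 31 members averaged 1 FPKM or more and were at least 1 apart on the log2(FPKM + 1) scale between B1 and B2, beside 1.69% of all gene names. These were *Lamc3* and *Lama1*, which were 2.45 and 2.32 times higher in B2. None of the members with a mean of 1 FPKM or more was as far apart between A1 and A2, where the widest difference was 0.67, for *Itgb8*, and 16 of all 17337 gene names were. *Col4a1*, a chain of the collagen IV network of basement membranes, was at 118 and 122 FPKM in A, 136 in B1 and 316 in B2. Its B2 value was likewise far above B1, but unlike those of *Lamc3* and *Lama1* its B1 value lay above both libraries of A. With *Foxc1* and *Aldh1a2* it was again B2 that was highest, and the part of these genes and of the lower depth of B2 was not tested.

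Other genes of cell adhesion were taken from lists chosen for this pathway. Among 13 analysed matrix ligands outside the members and the fibrillar collagens, 4 met the criteria for higher in B, or 30.8%, and 0 for higher in A. Over all gene names these shares were 2.77% and 0.952%. The median log2 difference of the list was 0.43. *Fn1*, encoding fibronectin, the ligand of the *Itga5* product, was at 16.9 and 16.4 FPKM in A and 41.7 and 99.0 in B. *Vtn*, encoding vitronectin, a ligand of the *Itgb5* product, was at 4.86 and 4.59 in A and 22.6 and 53.9 in B. *Fbln1* and *Fbn1*, encoding fibulin-1 and fibrillin-1 of elastic fibres, were the others, with log2 differences of 2.08 and 1.06. Without B2 these were 1.70 and 0.88, so that of *Fbn1* fell below the limit of 1. The highest of the list by mean were *Mfge8*, *Col4a1* and *Agrn*. *Mfge8*, an RGD protein that binds alpha-V integrins, was at 272 and 312 in A and 218 and 112 in B, and *Agrn*, the laminin-binding proteoglycan agrin, at 179 and 128 in A and 107 and 73.7 in B.

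The cytoplasmic adaptors link integrins to the inside of the cell. Of 21 analysed cytoplasmic adaptors 17 had a mean of at least 1 FPKM, and 1 met the criteria, higher in B, a share of 4.76% of the list, near the 2.77% of all gene names. This was *Parva*, encoding parvin alpha of the complex with integrin-linked kinase, at 10.7 and 11.6 FPKM in A and 31.8 and 34.0 in B. *Ilk*, the kinase itself, was at 127 and 104 in A and 162 and 119 in B. *Actn4*, an actin crosslinker, was at 77.1 in both libraries of A and at 109 and 150 in B. *Fermt2*, encoding kindlin-2, which activates integrins, was at 94.5 and 91.2 in A and 87.1 and 89.3 in B. The median log2 difference of the list was 0.08. Of the 12 membrane partners and other matrix receptors none met the criteria in either direction, with a median of 0.05. The highest were the tetraspanins *Cd81*, *Cd151* and *Cd9*, with replicate means of 525 and 374, 164 and 196, and 81.5 and 91.9 FPKM in A and B. The B libraries of *Cd9* were far apart, at 45.6 FPKM in B1 and 138 in B2, on either side of 79.3 and 83.8 in A. Its log2 difference was -0.03, and -0.83 without B2.

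Of the 7 genes of TGF-beta ligands and latency proteins, which integrins with *Itgb8* and *Itgb5* act on, 1 met the criteria, higher in B, beside 2.77% of all gene names. *Lrrc32*, which holds latent TGF-beta on the cell surface, was at 4.18 and 4.51 FPKM in A and 10.9 and 17.9 in B. *Ltbp3*, *Ltbp1* and *Tgfb1* were the highest of the list, with replicate means of 97.6 and 91.6, 24.2 and 12.1, and 8.02 and 13.5 FPKM in A and B.

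Collagens and cadherins were set beside the members as 2 other adhesion families. Of 27 collagen genes 13 met the criteria for higher in B and 0 for higher in A, a share of 48.1%, with a median log2 difference of 1.44. *Col1a2*, *Col5a1*, *Col1a1*, *Col6a2* and *Col3a1* had the largest differences, from 2.33 down to 1.90. *Col13a1*, which met the criteria with a log2 difference of 1.31, was at 0.65 without B2. Of 29 cadherin and protocadherin genes 2 met the criteria for higher in B, or 6.90%, and 1 for higher in A, or 3.45%, beside 2.77% and 0.952% of all gene names, with a median of 0.16. *Cdh2*, N-cadherin of the neuroepithelium, was at 72.0 and 76.5 FPKM in A and 63.6 and 67.4 in B. *Cdh11*, a mesenchymal cadherin, was at 27.3 and 26.5 in A and 71.9 and 60.5 in B, *Pcdh18* had a log2 difference of 1.01, and *Pcdh8* of -1.62. Without B2 the difference of *Pcdh18* was 0.96, below the limit of 1, and those of *Cdh11* and *Pcdh8* were 1.39 and -2.01. *Col1a1*, *Col1a2* and *Col3a1* are counted both here and among the mesenchymal markers. *Col4a1* is counted both here and among the matrix ligands, and *Cdh5* both here and among the endothelial markers.

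**Figure D4:**
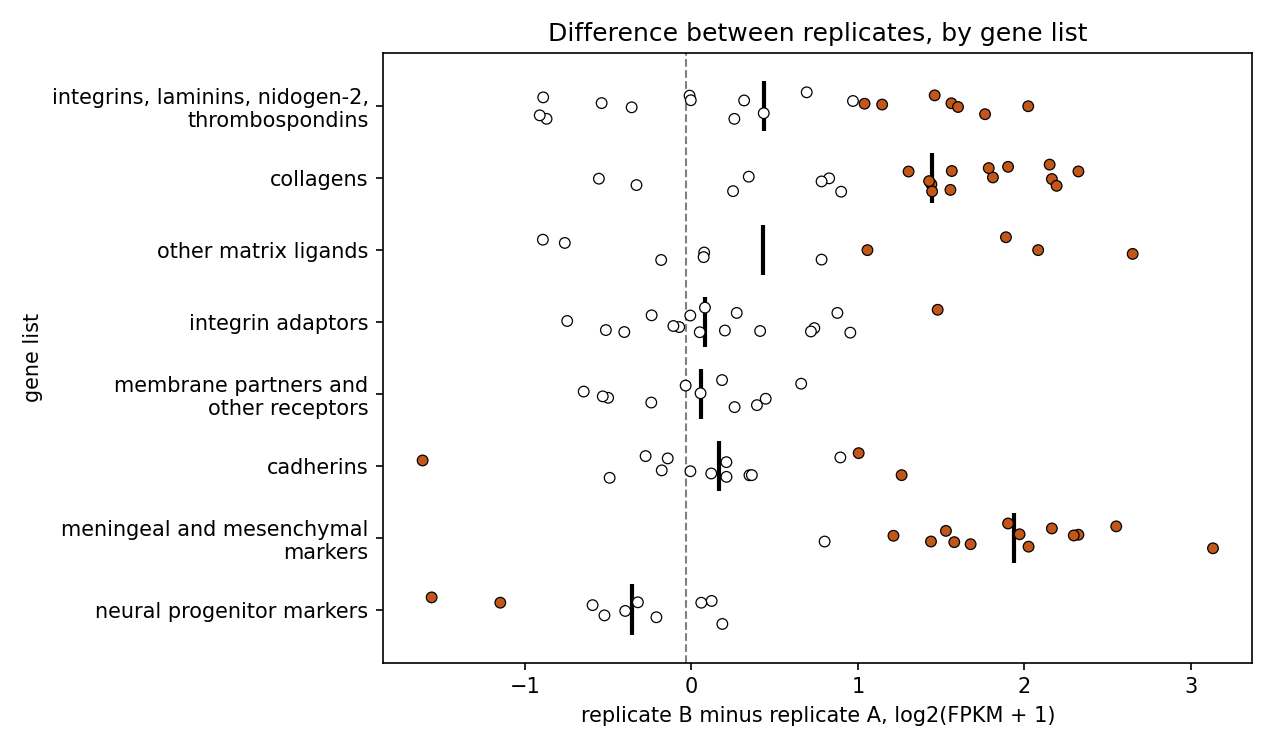
Replicate B minus replicate A in log2(FPKM + 1) for genes averaging 1 FPKM or more in 8 lists, with 1 point per gene (filled where all 3 criteria were met), a black bar at the median of the list and a dashed line at the median of all genes, -0.03. The medians of the lists drawn here run from 1.94 for the meningeal and mesenchymal markers and 1.44 for the collagens to 0.43 for the integrins, laminins, nidogen-2 and thrombospondins and -0.36 for the neural progenitor markers.

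The promoters of 3 members that were higher in B, from the laminins and thrombospondins, are shown beside that of *Itgb1*, whose log2 difference was 0.26. RefSeq promoter sequences of the GRCr8 assembly were matched for 21 of the 31 members, 5 of them higher in B. Those of *Itga5* and *Itga8* are not printed. Each line gives the 250 bases before the start of the gene, 5′ to 3′ on its own strand. *Itgb1* is chr19:73602027-73602276 on the plus strand, *Lama4* chr20:43946648-43946897 on the plus strand, *Lamc1* chr13:68051987-68052236 on the minus strand and *Thbs1* chr3:125510000-125510249 on the plus strand. Capitals mark matches, on either strand, to any of 5 short motifs, which run together where they touch or overlap. The GC box was searched as GGGCGG. The letters of the TATA box were TATAAA. For the CCAAT box the name itself was searched. The letters CATTCC stood for the MCAT element. The AP-1 site was searched as TGAGTCA.
Itgb1: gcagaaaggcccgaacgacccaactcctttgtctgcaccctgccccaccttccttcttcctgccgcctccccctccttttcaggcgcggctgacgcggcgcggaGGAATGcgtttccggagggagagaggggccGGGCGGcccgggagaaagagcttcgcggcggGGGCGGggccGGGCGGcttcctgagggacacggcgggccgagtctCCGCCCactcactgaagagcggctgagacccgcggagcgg
Lama4: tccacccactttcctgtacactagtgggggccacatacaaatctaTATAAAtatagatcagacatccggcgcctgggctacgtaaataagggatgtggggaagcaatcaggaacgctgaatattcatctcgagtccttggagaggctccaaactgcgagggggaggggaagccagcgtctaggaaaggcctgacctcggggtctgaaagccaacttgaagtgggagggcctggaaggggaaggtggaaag
Lamc1: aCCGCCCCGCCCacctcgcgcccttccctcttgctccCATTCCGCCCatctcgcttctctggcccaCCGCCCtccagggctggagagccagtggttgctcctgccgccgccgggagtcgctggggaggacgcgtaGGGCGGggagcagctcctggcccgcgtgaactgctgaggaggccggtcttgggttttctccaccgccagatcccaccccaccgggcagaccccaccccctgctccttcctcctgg
Thbs1: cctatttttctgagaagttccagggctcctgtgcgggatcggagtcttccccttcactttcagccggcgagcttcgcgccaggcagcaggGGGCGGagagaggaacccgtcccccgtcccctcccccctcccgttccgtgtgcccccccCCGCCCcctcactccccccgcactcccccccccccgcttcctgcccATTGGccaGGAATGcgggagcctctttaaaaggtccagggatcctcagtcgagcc
The GC box was in 11 of the 21 member promoters, or 52.4%, beside 32.4% of all 27457 promoters of the same length, and in 3 of the 5 higher in B. The printed windows of *Itgb1*, *Lamc1* and *Thbs1* hold it and that of *Lama4* does not. G and C made up 71.2, 71.2 and 67.6% of the bases in the first 3 and 53.2% in *Lama4*. The window of *Itga5*, which also holds the GC box, had 55.6%, and the median over all promoters was 52%. The part of base composition in the motif shares was not tested. The TATA box letters were in 2 members, *Lama4* and *Itgb7*, beside 13.1% of all promoters, and in *Lama4* they begin 205 bases before the start. The MCAT letters were in 6 members beside 11.8% of all promoters, and in *Itgb1*, *Lamc1* and *Thbs1* among the printed ones. The CCAAT letters were in 4 members beside 34.3% and the AP-1 letters in 0 beside 3.98%. A match of letters is a description of the sequence and not a site of binding.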

How the data were processed

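The mRNA-seq libraries A1, A2, B1 and B2 were grouped into replicates A and B by their labels. The authors aligned reads to rn6 with STAR, and the tables have the layout of StringTie, which the labels' processing notes name with cutadapt and HISAT, while the methods name Rsubread and DESeq2 for FPKM. Tool versions and the strand setting of the counting are not given in the sources used here. The deposited FPKM values were used as the levels, and the deposited TPM values, which sum to 1000000 per library, as an alternative. The deposited coverage signal, the mean read depth over a gene, served only to compare depth, since total read numbers are not in these tables. It was 24.3, 22.7, 24.4 and 6.83 per FPKM in A1, A2, B1 and B2, so low values are least precise in B2. Start-seq of the same cultures was not analysed here.

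Rows of the same gene name were added up in FPKM, technical libraries were averaged, and mean and SD were taken over A and B. Differences are on the log2(FPKM + 1) scale. On it, changes of low genes come out smaller than they are. Members with a mean of at least 5 FPKM or meeting the A against B criteria are named with all libraries. Of the pathway and family lists the 3 highest genes and those meeting the criteria, up to 5 with the largest difference, are named, and other genes as examples. The members and lists were chosen with earlier results of these data known. *Itga3*, *Itgav*, *Lama2*, *Lamb1*, *Nid1* and other genes without values were not analysed. RefSeq tables of GRCr8 gave promoters and names of gene copies, and coordinates of genes are those of rn6 in the deposited tables. 1 member counted in the totals is not reported here by name. Counting was tested on simulated data. Python 3.11.15, pandas 2.3.3, numpy 2.4.6 and matplotlib 3.10.9 were used.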

Additional observations from a re-analysis of the deposited data

Results flagged for a closer look

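*Lamc3* was the one of 19 members examined whose highest library stood apart from the other 3 by more than Dixon's 95% critical value. Its level was 24.1 FPKM in B2 and between 8.26 and 10.3 in the others, a gap of 0.873 of the whole range. Chance flags about 1 in 20 groups of independent samples, and the 4 libraries are 2 technical pairs and not independent. *Lama1* showed a like pattern, at 21.7 FPKM in B2 and 9.22 to 11.5 in the others, without passing that value.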

How the results depend on the processing

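The number of members at 1 FPKM or more was 19 and lay between 14, at a minimum of 5 FPKM, and 19 under its alternatives, with 18 to 19 when 1 replicate was left out. The count higher in B was 7 and fell to 3 at a minimum mean of 10 FPKM, where *Lama4*, *Lamc1* and *Nid2* remained. It was 6 to 10 when each library was left out in turn. The lowest, without B2, lacked *Lamc1*, and the highest, without B1, added *Itga11*, *Lama1* and *Lamc3*. The count higher in A was 0 as reported. It was 1, *Itgb4*, with a pseudocount of 0.1 or with TPM, and 3, with *Itga7* and *Thbs3*, at a log2 difference of 0.58. It was 4 with no minimum difference, an alternative chosen after seeing the data, and 0 to 3 when each library was left out, 3 without A2, 2 without B1 and 1 without B2. The median log2 difference of 0.43 ranged from 0.11 without B2 to 1.002 without B1, and was 0.10 with no filter on the mean. The share of *Itgb1* among the beta genes was 74.5% as reported and 72.2% without B2, a shift larger than the SD of 0.457 points over the replicates. The median stayed above 0 in every alternative run, while without B2 the difference of *Lama1* went from 0.43 to -0.13 and that of *Lama5*, near 0, also changed sign, to 0.04. Of 62 alternative values 52 stayed within 1.5 times the reported count, or within 1 SD of the reported share or median. That SD is wide where the replicates differ. For a share it comes from A and B themselves, so a share with 1 replicate left out always lies within it. Such values are among the 52 but cannot tell whether a share is stable. The share of *Itga7* among the alpha genes was 40.0% in B and 66.8% in A, and that of *Thbs3* among the thrombospondins 53.1 and 90.3%. The cause of the shifts was not tested. No paired analysis was possible because the design has 1 condition and its results come from no test. The lower depth of B2 limits genes under 1 FPKM, of which 4 members were listed at 0 there.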
